A study of Mus musculus with 8 samples.

Results

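The light chains of mouse antibodies and the joining chain were followed in single cells of lung grafts. The set held 6 genes of the 17921 measured and was taken from a list of names, so no measured value chose it. Igkc encodes the constant region of the kappa light chain. Iglc1, Iglc2 and Iglc3 encode the constant regions of the lambda light chains, and Iglv1 is one of the few lambda variable genes of the mouse. Jchain encodes the joining chain, a small protein that links antibody units into polymers. All 6 genes were found in the table of counts. They were read in 2286 cells that the authors labelled B cells and 172 that they labelled plasma cells (PCs), and in the other 9 cell types, of 20778 cells in all.

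The lungs were left grafts taken 1 month after orthotopic transplantation into male C57BL/6 (B6) mice, without immunosuppression in either group. In the B6→B6 group (n = 5 mice) donor and recipient were both B6. In the HLA→B6 group (n = 3 mice) the donor carried a transgene for human HLA-A2.1 on the B6 background, a pair that the authors use as a model of bronchiolitis obliterans syndrome (BOS). Each graft was 1 mouse and 1 library of transcript 3′ ends. The labels do not divide donor from recipient cells within a graft, and the promoter of the transgene was not given in the sources used here.

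In mice nearly every antibody-bearing cell carries the kappa chain, and a minority carries a lambda chain. A developing B cell rearranges 1 light chain locus at a time and, in general, keeps only 1 productive light chain, a rule called light chain exclusion. In the bone marrow kappa usually rearranges first and lambda later. PCs, the end stage of the B cell line, turn much of their messenger RNA over to the heavy and light chain they secrete. The joining chain is made mainly by antibody-secreting cells and is built into pentameric IgM and dimeric IgA. IgG is secreted as a monomer without it. Because PCs hold so much light chain message, broken PCs shed it into the cell suspension, and droplets of other cells can take up such free RNA.

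Of the 3 lambda constant genes, Iglc2 and Iglc3 differ by little at the 3′ ends that the assay read, and Iglc1 differs more. Igkc lies on chromosome 6 (GRCm38, 70726435 to 70726966, plus strand) in a single exon. On the minus strand of chromosome 16 lie Iglc1 (19061618 to 19062071), Iglc3 (19065230 to 19065681), Iglv1 (19085017 to 19085500) and Iglc2 (19198396 to 19200351). Jchain lies on chromosome 5 (88519809 to 88527891, minus strand) with 4 exons. The last 120 coding bases of the 3 lambda constant genes, stop codon included, are printed to show how alike they are. Reads after the stop codon can also decide which gene a lambda transcript is given to. They come from the GENCODE vM21 transcripts on GRCm38, at chr16:19198536-19198655 for Iglc2, chr16:19065365-19065484 for Iglc3 and chr16:19061752-19061871 for Iglc1, and capitals mark bases that differ from Iglc2.
Iglc2: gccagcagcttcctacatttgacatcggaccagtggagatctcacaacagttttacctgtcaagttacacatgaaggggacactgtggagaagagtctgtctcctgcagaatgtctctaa
Iglc3: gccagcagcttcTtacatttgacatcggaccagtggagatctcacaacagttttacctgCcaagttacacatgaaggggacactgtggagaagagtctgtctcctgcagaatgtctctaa
Iglc1: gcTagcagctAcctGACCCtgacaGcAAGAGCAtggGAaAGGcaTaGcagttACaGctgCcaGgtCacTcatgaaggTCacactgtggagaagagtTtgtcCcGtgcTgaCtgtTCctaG

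Iglc3 differed from Iglc2 at 2 of these 120 bases and Iglc1 at 39. Over the whole coding part 306 of 318 aligned bases of Iglc2 and Iglc3 were the same (96.2%), with a longest shared run of 79 bases, and after the stop codon 90% were the same with a run of 39. Iglc1 shared 73.7% of its coding bases with Iglc2. Igkc and Iglc2 shared 56%, with no run over 8 bases. Counts of Iglc2 and Iglc3 are therefore uncertain against each other, because a read inside a shared run cannot be given to 1 of them, and the 3 lambda constant genes were also summed as lambda.

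The libraries held between 868 and 6544 cells and between 1669076 and 12445769 unique molecular identifiers (UMIs, each 1 captured transcript molecule), with medians of 1356 to 1948 UMIs per cell. The labels were set against their markers. The summed level of a list of B cell markers, Cd79a and Ms4a1 among them, was 7083 UMIs per 1000000 UMIs (CPM) in B cells and 16.7 in T cells, and that of 5 PC markers was 4190 CPM in PCs. Cells labelled lung structural also held red blood cells, with 177620 CPM of 3 hemoglobin genes. In all, 1014 cells carried a barcode that also occurred in another mouse, among them 64 B cells and 19 PCs. B6→B6 mice 1, 2 and 3 and HLA→B6 mouse 2 were linked, directly or through another of them, by such barcodes. The linking pairs shared 2.89% to 11.9% of the smaller library, and pairs outside this set at most 2.01%. Within the set, B6→B6 mouse 3 and HLA→B6 mouse 2 shared 0.945% and were linked through the others. Without the cells that share a barcode the PCs of the B6→B6 mice numbered 1, 1, 6 and 1 in mice 1 to 4 in place of 7, 7, 7 and 1.

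Igkc was the most abundant member in B cells and lay at nearly the same level in every mouse. The level was 19120, 14988, 15452, 15264 and 16919 CPM in B6→B6 mice 1 to 5 and 17311, 15435 and 17327 CPM in HLA→B6 mice 1 to 3. The means were 16349 ± 1720 (SD, n = 5) and 16691 ± 1088 (n = 3), and the groups overlapped. Iglc2 was at 1740 ± 229 CPM over the 8 mice, Iglc3 at 1531 ± 248 and Iglc1 at 1091 ± 300. Iglv1 was barely caught in B cells, with 33 UMIs in all and 7.45 ± 5.85 CPM. A 3′ assay gives 1 UMI per molecule whatever its length, but it reads few variable regions, since they lie far from the 3′ end of the joined transcript.

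UMIs were summed over the B cells of each mouse and compared between HLA→B6 and B6→B6 with edgeR's quasi-likelihood test, with p-values adjusted by Benjamini-Hochberg over 6001 genes. Of the 5 members tested 1 passed an adjusted p of 0.05, where 0.117% of all genes did (0.1% higher and 0.0167% lower in HLA→B6). The light chains were not among the genes called. The log2 fold change of Igkc was 0.05 (SE 0.11), that of Iglc1 -0.13 (SE 0.19), that of Iglc2 0.06 (SE 0.15) and that of Iglc3 -0.25 (SE 0.14), with adjusted p = 1.00 for each. The signs of the first 3 changed when single mice were left out, within 0.23 of 0. Iglv1 did not pass the filter on low counts. The mouse was the replicate in these tests.

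Jchain was the member called in B cells. Its level was 20.5, 0, 0, 5.26 and 0 CPM in the B6→B6 mice and 236, 123 and 8.23 CPM in the HLA→B6 mice. HLA→B6 mouse 3 lay below B6→B6 mouse 1, so the groups overlapped. The sums rested on 4 UMIs in the 5 B6→B6 mice and on 255 in the 3 HLA→B6 mice. The log2 fold change was 5.92 (SE 0.93, adjusted p = 0.0186). With the sets of linked libraries as a covariate it was 5.91 (adjusted p = 0.0143). The call was lost with DESeq2 (log2 fold change 5.20, adjusted p = 1.00). It was also lost when B6→B6 mouse 2 was left out (adjusted p = 0.0708), and Jchain no longer passed the filter without B6→B6 mouse 1, 3 or 5 or HLA→B6 mouse 1 or 2.

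Few B cells carried the Jchain UMIs. They lay in 33 of 2286 B cells, 24 of which also had a UMI of Mzb1, a chaperone of antibody assembly that marks PCs and some B cells. In these 33 cells 8 with at least 10 Jchain UMIs held 223 of the 259. All 8 were from HLA→B6 mice 1 (5 cells, highest 65 UMIs) and 2 (3 cells, highest 45). The share of B cells with a Jchain UMI, with each cell thinned to 1000 UMIs, was 0.740%, 0%, 0%, 0.579% and 0% in the B6→B6 mice and 2.84%, 2.13% and 0.614% in the HLA→B6 mice. The difference of 1.60 percentage points did not pass the exact permutation test over the 56 splits of the mice (two-sided p = 0.0714, adjusted 0.286 over 4 tests), whose smallest p is 0.0357. Among the 4 subclusters of the authors, cluster 1 held 15 of the Jchain B cells with 195 UMIs and cluster 0 held 16 with 22 UMIs, though cluster 0 had 1893 B cells and cluster 1 had 206.

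Some heavy chain genes were also higher in the B cell sums of HLA→B6. Of 8 heavy chain constant genes 5 were tested and 3 were higher in HLA→B6, where 0.1% of all 6001 genes were. Their median log2 fold change was 3.52 over the 5 tested against 0.01 over all genes. Ighg3 had a log2 fold change of 5.92 (adjusted p = 0.0186), Ighg2b 4.08 (adjusted p = 0.0138) and Igha 3.52 (adjusted p = 0.0396). These encode the heavy chains of class-switched antibodies. None of the 3 was called with DESeq2 (adjusted p = 0.298 for Ighg2b and 1.00 for Igha, with none given for Ighg3). With edgeR the Ighg2b call was lost without B6→B6 mouse 1 or 3 or HLA→B6 mouse 1 or 2 (highest adjusted p = 0.0890). That of Ighg3 was lost without B6→B6 mouse 1, 2, 3 or 5 or HLA→B6 mouse 1 (highest 0.225), and that of Igha without B6→B6 mouse 1, 2 or 5 or HLA→B6 mouse 1 or 2 (highest 0.438). Ighm and Ighd, the heavy chains of naive B cells, had log2 fold changes of 0.04 and -0.09 and were not called. None of the 6 tested partners of the B cell receptor (such as Cd79a, Cd79b and Syk) and none of 10 tested genes of antibody assembly and secretion was called. Of the genes of light chain rearrangement and the surrogate light chain 1 of 6 was tested, Vpreb3, with a log2 fold change of -0.55 (adjusted p = 1.00). The 2 tested PC regulators and the 1 tested polymeric Ig receptor were not called either. Of all genes 0.117% were called in B cells, so the lack of a call in such short lists says little about them. In T, NK and structural cells no gene of these lists was called except Ighg1 in structural cells. Of all genes 0.0698% were called in T cells, 0% in NK cells and 0.604% in structural cells. Ighm in NK cells had a log2 fold change of 2.70 that missed the threshold (adjusted p = 0.0532).

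Kappa and lambda use was then read cell by cell. A cell was typed with at least 5 light chain UMIs, as kappa with a lambda share of at most 0.2, as lambda with at least 0.8 and as mixed between. Of 2286 B cells 2235 were typed. They divided into 1381 kappa cells (61.8%), 123 lambda cells (5.50%, exact 95% interval 4.59% to 6.53%) and 731 mixed cells (32.7%). Exact intervals cover counting error only.

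The lambda share of a cell had a broad peak at low values and a narrow one near 1. There were 647 cells below 0.1 and 699 from 0.1 to 0.2, then 457, 170 and 81 in the next bins of 0.1. The counts reached a low of 12 between 0.7 and 0.8 and rose to 105 above 0.9. The lambda class was thus set apart by a gap, with 13 cells within 0.05 of its limit, whereas 603 cells lay within 0.05 of the limit between kappa and mixed. Mixed is therefore a range along the flank of the kappa peak and not a separate group of cells.

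**Figure D1:**
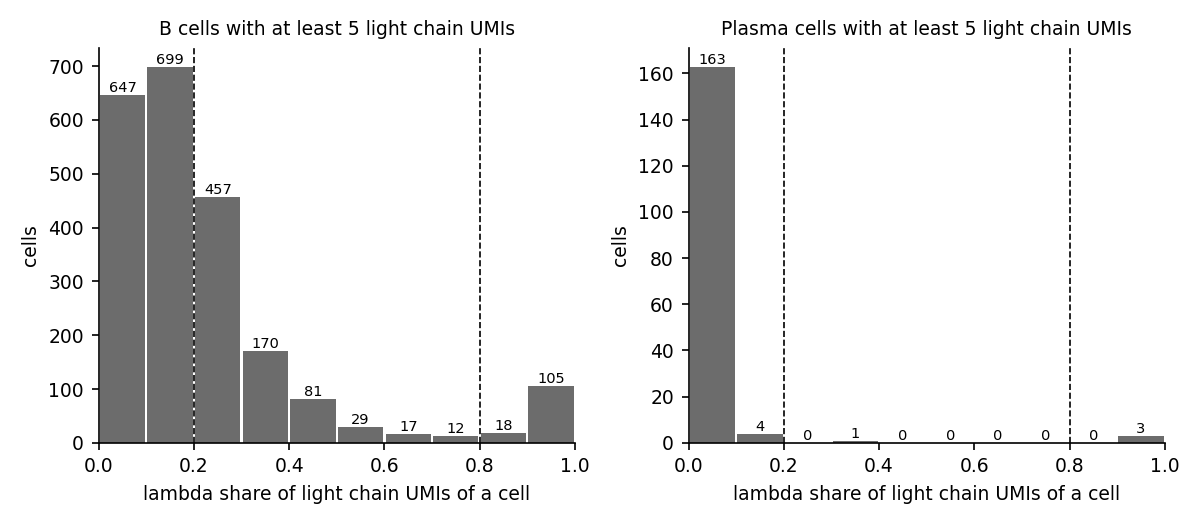
Number of cells (y axis) by lambda share of the light chain UMIs of a cell (x axis, bins of 0.1), for B cells on the left and PCs on the right with at least 5 light chain UMIs. Dashed lines are the limits at 0.2 and 0.8, and a cell on a bin's lower edge is counted in that bin. B cells spread below 0.5 with 105 cells above 0.9, while 163 of the 171 typed PCs lie below 0.1.

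A low level of lambda was found in most kappa B cells. Their median was 28 Igkc UMIs and 3 lambda UMIs, and 88.8% had at least 1 lambda UMI. Iglc2 was seen in 67.6% of them and Iglc3 in 71.3%, but Iglc1 in 21.4%. In T cells, which should lack light chains, 0.611% had an Iglc2 UMI and 0.138% an Iglc3 UMI, at a median depth of 1648 UMIs against 1596 in the kappa B cells. The reverse did not hold to the same degree. Of the 123 lambda B cells 85 had no Igkc UMI, with a median of 0 Igkc and 28 lambda UMIs. Igkc, but no lambda gene, is among the markers that the authors' methods give to SoupX, a tool that subtracts free RNA. Its part in this difference was not tested.

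In lambda B cells Iglc1 had the most UMIs of the 3 lambda constant genes. Summed over these cells there were 2075 UMIs of Iglc1, 1239 of Iglc2 and 531 of Iglc3. In B6→B6 mouse 5 alone Iglc2 was ahead, with 290 UMIs against 262 of Iglc1. Reads shared by Iglc2 and Iglc3 cannot be given to 1 of them, so their counts against Iglc1 are uncertain too. Iglc1 led in 67 cells, Iglc2 in 38 and Iglc3 in 18. In kappa B cells the order was the other way, with 613 UMIs of Iglc1, 2445 of Iglc2 and 2533 of Iglc3. In 58 of the 123 lambda cells a single gene held at least 80% of the lambda UMIs, in 39 of the 67 cells led by Iglc1, in 12 of the 38 led by Iglc2 and in 7 of the 18 led by Iglc3.

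Light chain use of B cells did not separate the groups. Lambda cells were 7.02%, 8.05%, 6.58%, 2.97% and 4.82% of typed B cells in the B6→B6 mice and 5.30%, 6.45% and 3.90% in the HLA→B6 mice. The means were 5.89% ± 2.01 (SD, n = 5) and 5.22% ± 1.28 (n = 3), a difference of -0.67 percentage points (exact permutation test, two-sided p = 0.607). Mixed cells were 28.1%, 40.3%, 31.8%, 31.4% and 29.2% in the B6→B6 mice and 40.2%, 31.0% and 25.5% in the HLA→B6 mice. The means of 32.1% and 32.2% differed by 0.09 (exact permutation p = 0.893). The share of Iglc1 among lambda constant UMIs was 24.99% ± 5.39 and 24.5% ± 3.25 (exact permutation p = 1). All 3 adjusted p over the 4 exact tests on B cells were 1. Averaged within the linked and the other libraries, the differences were -0.03 for lambda, 0.09 for mixed cells, 0.31 for the Iglc1 share and 1.66 for the share with Jchain. Counted as cells with no Igkc UMI and at least 5 lambda UMIs, lambda cells were 1.77% to 6.36% of typed B cells in the 8 mice.

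**Figure D2:**
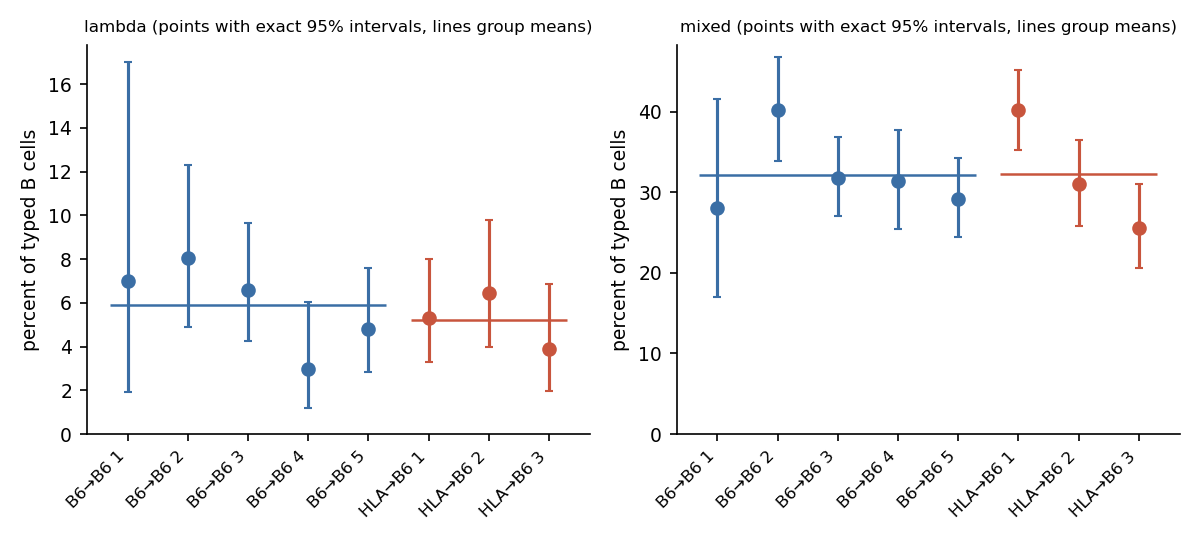
Percent of typed B cells (y axis) that were lambda (left) or mixed (right) in each mouse, with exact 95% intervals from counting alone. Blue points are B6→B6 and red points HLA→B6 mice, and horizontal lines are group means, which lie at 5.89% and 5.22% for lambda and at 32.1% and 32.2% for mixed cells.

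The subclusters that the authors drew from these cells differed in level and typing, and are described without a test because the same counts drew them. In cluster 0, with 1895 B cells and PCs, Igkc was at 15496 ± 1161 CPM over 8 mice, and 1124 of 1874 typed cells were kappa and 34.4% mixed. In cluster 1 (210 cells) Igkc was at 19390 ± 8455 CPM over the 4 mice with at least 10 cells. It was at 11782 and 15772 CPM in B6→B6 mice 2 and 3 and at 31347 and 18661 in HLA→B6 mice 1 and 2. In the latter 2, 1 cell held 1206 of 7829 and 1 cell 1057 of 4672 Igkc UMIs. With 5 to 8 cells, B6→B6 mice 1, 4 and 5 were at 29310, 12291 and 15312 CPM and HLA→B6 mouse 3 at 28358. Of the typed cells 62.8% were kappa and 32.4% mixed. Cluster 3 (157 cells) stood apart, with 32932 ± 7184 CPM over 3 mice and 117 of 130 typed cells kappa (90%) against 5.38% mixed. Of its cells 21.7% had an Iglc2 UMI, where 79.1% of cluster 0 did, but its cells were shallower. In HLA→B6 mouse 3 its 85 cells held 50008 UMIs, where 202 cells of cluster 0 held 417614. As a level, Iglc2 was at 1248 ± 1090 CPM in cluster 3 and 1763 ± 221 in cluster 0. The shares and the typing were not compared at 1 depth. Cluster 2 held most PCs, and Igkc was at 415224 and 429282 CPM in the 2 mice with at least 10 of its cells.

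In PCs Igkc took up a large part of the cell's message. PCs numbered 7, 7, 7, 1 and 0 in the B6→B6 mice and 121, 27 and 2 in the HLA→B6 mice. Their Igkc level was 559025, 595438, 424687 and 361562 CPM in B6→B6 mice 1 to 4 and 426529, 415224 and 361258 CPM in HLA→B6 mice 1 to 3. The 2 groups overlapped, and with 2 mice at 10 or more PCs no test was made. In the median kappa PC Igkc was 42.3% of all UMIs (range 2.17% to 70.8%), against 1.74% in the median kappa B cell.

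PCs were nearly all kappa. Of 171 typed PCs 167 were kappa (97.7%, exact 95% interval 94.1% to 99.4%), 3 were lambda (1.75%, 0.363% to 5.04%) and 1 was mixed. The type was kappa in 117 of 121 PCs of HLA→B6 mouse 1 and in every typed PC of the other mice. Without the cells that share a barcode 150 of 153 were kappa and 2 lambda. The cells of 1 clone are not independent, so the intervals are too narrow where clones are present, and the share of lambda PCs was not tested against that of B cells.

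The 4 PCs that were not kappa all came from HLA→B6 mouse 1. The 3 lambda PCs had no Igkc UMI and used Iglc1, with 51, 1387 and 5099 UMIs, beside IgM, IgA and IgG2c heavy chains in that order. The mixed PC had 11673 Igkc and 7726 Iglc1 UMIs together with 2808 Ighm and 1332 Jchain UMIs in a cell of 26162 UMIs, and a droplet with 2 cells was not told apart from 1 cell with 2 light chains. This cell and the lambda PCs held nearly all the Iglc1 of PCs, where Iglc1 was at 13663 CPM in HLA→B6 mouse 1 and at 0 to 1119 CPM in the other 6 mice with PCs.

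Lambda message was relatively scarcer in kappa PCs than in kappa B cells. The median lambda share of light chain UMIs was 0.706% in the 167 kappa PCs and 10.3% in the 1381 kappa B cells. In number, however, kappa PCs had a median of 21 lambda UMIs and kappa B cells of 3, in cells with medians of 7981 and 1596 UMIs. Iglc2 had the most, with 3765 UMIs in kappa PCs against 1150 of Iglc3 and 559 of Iglc1.

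Iglv1, a lambda variable gene, was found mostly in kappa PCs, which were also 97.7% of typed PCs. PCs held 2237 of its UMIs, 98.6% of them in kappa PCs, where 120 of 167 cells had at least 1. Its level was 1649 CPM in kappa PCs and 1139 CPM in the 3 lambda PCs. The cell with the most, 575 UMIs, was a kappa PC of HLA→B6 mouse 2 with 18440 Igkc and 0 Iglc1 UMIs. The 3 lambda PCs had 19 Iglv1 UMIs beside 6537 of Iglc1. Kappa variable genes were rare in the same cells. All 56 Igkv genes in the table had 404 UMIs in PCs together, 0.0683% of the Igkc count. The 3 with the most were Igkv5-43 (26 UMIs), Igkv4-61 (24) and Igkv1-117 (21), all but 1 UMI in HLA→B6 mouse 1 and no cell above 7. Kappa variable use could therefore not be read from these few UMIs.

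Jchain was high in PCs of every mouse that had them. It was at 31572, 70553, 36351 and 49076 CPM in B6→B6 mice 1 to 4 and at 38557, 27301 and 34686 CPM in HLA→B6 mice 1 to 3, so the groups overlapped. A Jchain UMI was found in 167 of 172 PCs. Set by heavy chain class, where at least 60% of at least 5 heavy chain UMIs had to be of the class, Jchain was at 50718 CPM in 58 IgM or IgD PCs, at 30901 CPM in 106 IgG PCs and at 45960 CPM in 7 IgA PCs. The place of IgA differed between mice, with 68119 CPM in 4 cells of HLA→B6 mouse 1 and 11059 CPM in 3 cells of mouse 2.

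The order of IgM over IgG held within mice. It was 45673 against 23746 CPM in B6→B6 mouse 1, 76636 against 15146 in mouse 2 and 40305 against 0 in mouse 3, which had 1 IgG PC. It was 52463 against 33362 CPM in HLA→B6 mouse 1 and 41476 against 15538 in mouse 2. All 5 mice with both classes were thus higher in IgM, though 3 of them rest on 1 to 6 cells of a class. Without the cells that share a barcode 3 mice kept both classes, HLA→B6 mouse 1 with 52463 against 33229 CPM, HLA→B6 mouse 2 with 45459 against 13084 and B6→B6 mouse 3 with 37004 against 0. In B cells the order was the other way, with 1242 CPM in 28 IgG cells against 35.1 CPM in 1731 IgM or IgD cells and no UMI in 9 IgA cells. It was 2065 against 111 CPM in HLA→B6 mouse 1 and 392 against 102.5 CPM in mouse 2, and the other mice had at most 1 IgG B cell.

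**Figure D3:**
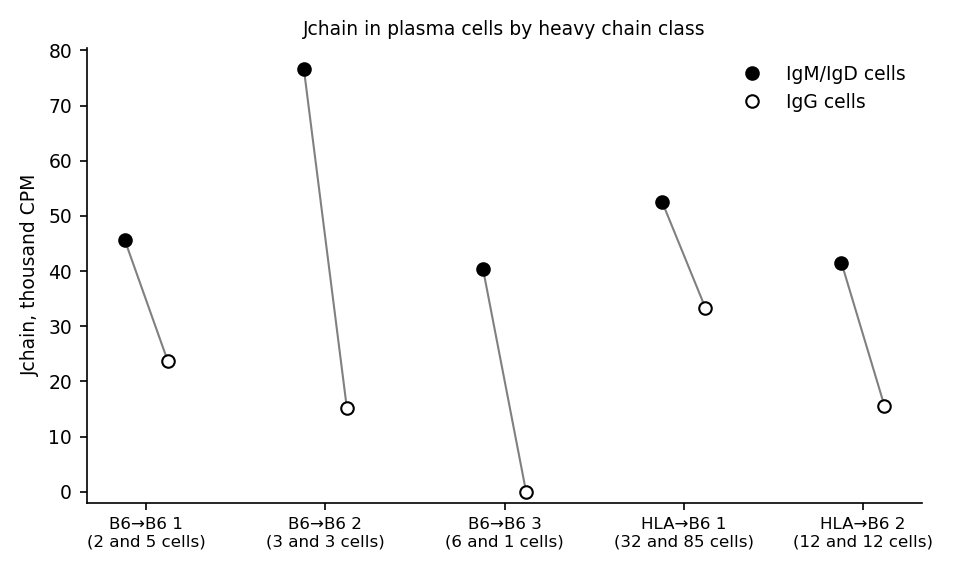
Jchain level of PCs (y axis, in units of 1000 CPM, over the summed cells of a class) in the 5 mice that had PCs of both classes (x axis, with the number of IgM/IgD and IgG cells). Filled points are IgM or IgD cells and open points IgG cells, joined within a mouse, and each filled point lies above its open one.

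Light chain message outside the B line was read as a measure of free RNA and of mislabelled or doubled droplets, which these counts do not divide. The authors' methods list Igkc, but none of the lambda genes or Jchain, among the markers given to SoupX, a tool that subtracts free RNA. The sources used here do not say whether the deposited counts precede or follow that step. Its part in the light chain values given here was not tested. No caller of doublets was run here. Removal of cells with a UMI of any gene of the B cell marker list was used in its place as an alternative.

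The mean Igkc level over mice with at least 10 cells was 2844 ± 6498 CPM in myeloid cells, 525 ± 1312 in leukocytes, 195 ± 149 in structural cells, 148 ± 187 in alveolar macrophages, 59.5 ± 121 in T cells, 30.8 ± 87.2 in monocytes and 17.1 ± 48.3 in NK cells. Neighbours in this order were compared within mice by flipping signs in an exact permutation test, and none passed (adjusted p between 0.469 and 1). Mice at 0 in both types have no sign to flip, so most of these pairs could not have passed. For monocytes against NK cells 1 mouse was higher and 1 lower. Leukocytes lay below structural cells in 5 of 7 mice although their mean was higher. Without cells carrying a B cell marker UMI the means were 506 ± 617 CPM in myeloid cells, 489 ± 1214 in leukocytes, 152 ± 192 in alveolar macrophages, 105 ± 152 in structural cells, 49.1 ± 117 in T cells, 17.4 ± 49.2 in NK cells and 2.05 ± 5.79 in monocytes. No neighbours passed the same test then either (adjusted p between 0.750 and 1), and with so many mice at 0 none could have. The type 2 pneumocytes of the 1 mouse with 10 such cells and the mast cells of the 3 mice with as many had no Igkc UMI.

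**Figure D4:**
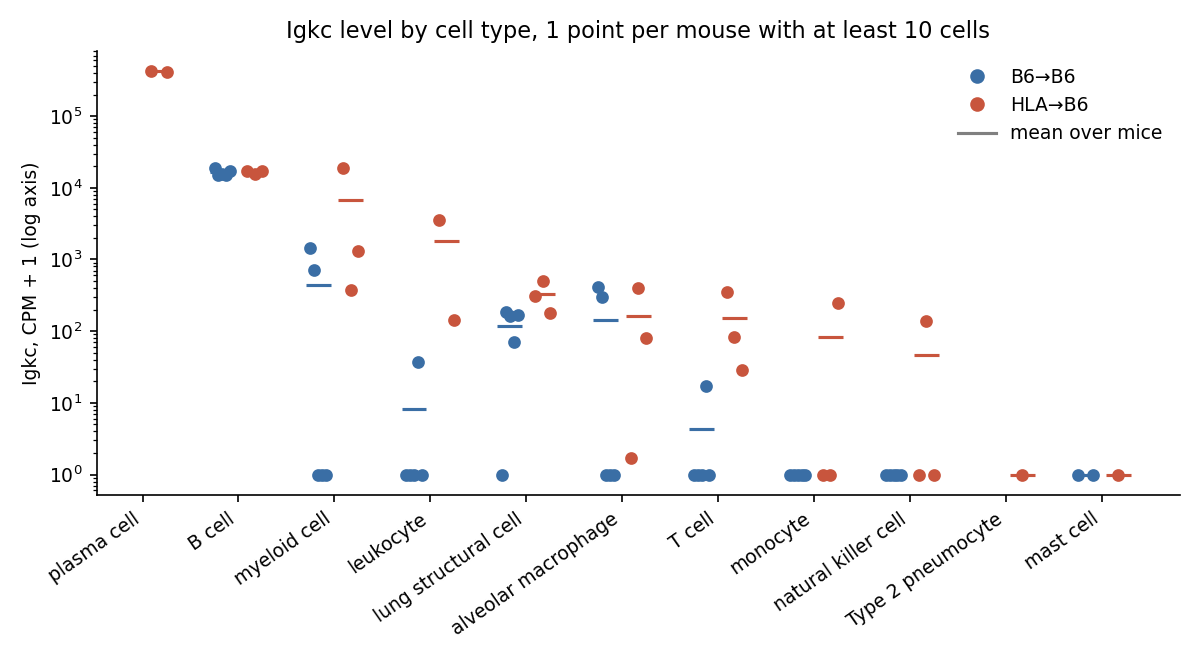
Igkc level (y axis, CPM + 1 on a log axis) in each cell type (x axis) with 1 point per mouse that had at least 10 cells, blue for B6→B6 and red for HLA→B6, and short lines for group means. B cells lie in a narrow band between 14988 and 19120 CPM, while the other types outside the B line spread from 0 to 18861 CPM.

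Igkc in T cells was limited to a few cells. The level was 0, 0, 0, 16.3 and 0 CPM in the B6→B6 mice and 351, 80.7 and 27.6 CPM in the HLA→B6 mice. Each HLA→B6 mouse lay above each B6→B6 mouse. The UMIs came from 24 of 5071 T cells (0.473%), and 10 cells held 95.9% of the 901. In HLA→B6 mouse 1, 665 UMIs came from 13 of 1147 cells, and the 1115 without a shared barcode held 247 (134 CPM). In HLA→B6 mouse 2, where 190 UMIs were counted, 1 cell held 174, and the level was 6.94 CPM without cells carrying a B cell marker UMI. By edgeR's quasi-likelihood test the log2 fold change was 4.61 (SE 0.87), and it did not pass (unadjusted p = 0.000180, adjusted p = 0.0795). None of the members was called among 7164 genes, of which 0.0698% were, and Igkc was the 1 member tested. The gene was called without B6→B6 mouse 4 (adjusted p = 0.0411), without the filter on low counts (0.000169) and with the sets of linked libraries as a covariate (0.0253). Without mouse 4 every B6→B6 mouse was at 0, so Igkc passed that filter through the HLA→B6 mice alone.

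T cells also held light chain message of the other kind. In B6→B6 mouse 4 there were 178 Iglc2 UMIs in 1470 T cells (88.1 CPM) beside 33 of Igkc, and 1 cell held 140 of the 178. Over all T cells 206 UMIs of Iglc2 lay in 31 cells. B cell markers were found in 13 of 1147 T cells of HLA→B6 mouse 1 and in 30 of 1470 of B6→B6 mouse 4, and their summed level in T cells ranged from 8.05 to 24.9 CPM in B6→B6 and from 11.5 to 44.5 CPM in HLA→B6. Their part in the light chain level was not tested.

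NK cells were nearly free of Igkc. There was no Igkc UMI in 7 of the 8 mice, and in HLA→B6 mouse 2 there were 28 UMIs in 1 cell (137 CPM). No member passed the filter on low counts in NK cells, where edgeR's quasi-likelihood test called 0% of 2987 genes, DESeq2 0 genes and an unadjusted p under 0.05 97 genes. Of Jchain there were 3 UMIs in 1011 NK cells.

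In structural cells 4 members were tested and 1 was called, at a background of 0.604% of 8109 genes, 0.419% being higher in HLA→B6. The member was Jchain, at 0, 0, 0.873, 4.21 and 0 CPM in the B6→B6 mice and 56.03, 17.8 and 23.6 CPM in the HLA→B6 mice. Each HLA→B6 mouse lay above each B6→B6 mouse. No B6→B6 mouse had more than 8 UMIs of Jchain, so it passed the filter on low counts through the HLA→B6 mice alone. The log2 fold change was 4.10 (SE 0.62, adjusted p = 0.0175 by edgeR's quasi-likelihood test), and without HLA→B6 mouse 1 it was 3.73 and not called (adjusted p = 0.131). With the sets of linked libraries as a covariate it was 3.85 (adjusted p = 0.00471). Ighg1, a heavy chain of IgG, was the 1 of 4 tested heavy chain genes called, with a log2 fold change of 7.76 (adjusted p = 0.0306). Its call was lost without B6→B6 mouse 2, 3 or 4 or HLA→B6 mouse 2 (highest adjusted p = 0.113), and it did not pass the filter without cells that share a barcode, without clusters 6 and 10 or in cells with at least 500 UMIs. The summed B cell markers were at 6.28 to 177 CPM in structural cells of the B6→B6 mice and at 46.1 to 56.7 CPM in those of the HLA→B6 mice, so the groups overlapped in these markers.

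Igkc in structural cells depended on a small cluster that the authors named B cells. The level was 0, 185, 163, 70.0 and 169 CPM in the B6→B6 mice and 303.9, 492.8 and 176 CPM in the HLA→B6 mice, with a log2 fold change of 1.14 (SE 0.81) that was not called (adjusted p = 0.829). This cluster, number 10, had 31 cells, 516 Igkc UMIs and no Jchain UMI. It held all Igkc of the structural cells of B6→B6 mice 2, 3 and 5 and 82 of 133 UMIs of mouse 4. Without it and cluster 6, named T cells, the level was 0, 0, 0, 29.3 and 0 CPM in B6→B6 and 288, 411 and 148 CPM in HLA→B6. The log2 fold change was then 4.78 and was called (adjusted p = 0.0147), as it was without cells carrying a B cell marker UMI (4.79, adjusted p = 0.0156). The 2 clusters were chosen after seeing the data. Of the B6→B6 mice, each removal left Igkc in mouse 4 alone, so both calls follow in part from the removal.

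The other Igkc of structural cells lay mainly in cluster 1, one of several named epithelial cells. It held 866 of 1880 UMIs at 624.5 CPM. In it 28.3%, 23.8% and 28.8% of cells had an Igkc UMI in HLA→B6 mice 1 to 3, at median depths of 636 to 833 UMIs, and in B6→B6 mouse 4, with the most cells of this cluster, 1.66% did. MHC II+ endothelial cells, cluster 0, had 285 UMIs at 105 CPM, all from HLA→B6 mice, with shares of 6.61%, 5.60% and 25% in mice 1 to 3.

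Within HLA→B6 mouse 1, the mouse with the most PCs, the share of cells with an Igkc UMI differed widely between types. It was 50.1% in leukocytes (exact 95% interval 46.7% to 53.5%), 12.0% in myeloid cells (7.58% to 17.8%), 10.2% in structural cells (8.92% to 11.6%), 1.13% in T cells (0.605% to 1.93%) and 0.234% in alveolar macrophages. It was 0 of 1077 monocytes (exact upper bound 0.342%) and 0 of 288 NK cells (1.27%). Median depth was 626 UMIs in the leukocytes, 1081.5 in structural cells, 1519 in T cells, 2202 in monocytes and 3577 in myeloid cells. Thinned to 500 UMIs, the share was 43.0% in leukocytes, 7.97% in structural cells and 0.438% in T cells. Leukocytes, structural cells and T cells of this mouse thus differed beyond counting error, also at 1 depth. The order was not the same in the other HLA→B6 mice. In mouse 2 the share was 8.70% of 46 leukocytes and 12.8% of structural cells, and in mouse 3 it was 20.8% of structural cells, 13.1% of alveolar macrophages and 3.48% of monocytes. In T cells it was 0.442% in mouse 2 and 0.433% in mouse 3.

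**Figure D5:**
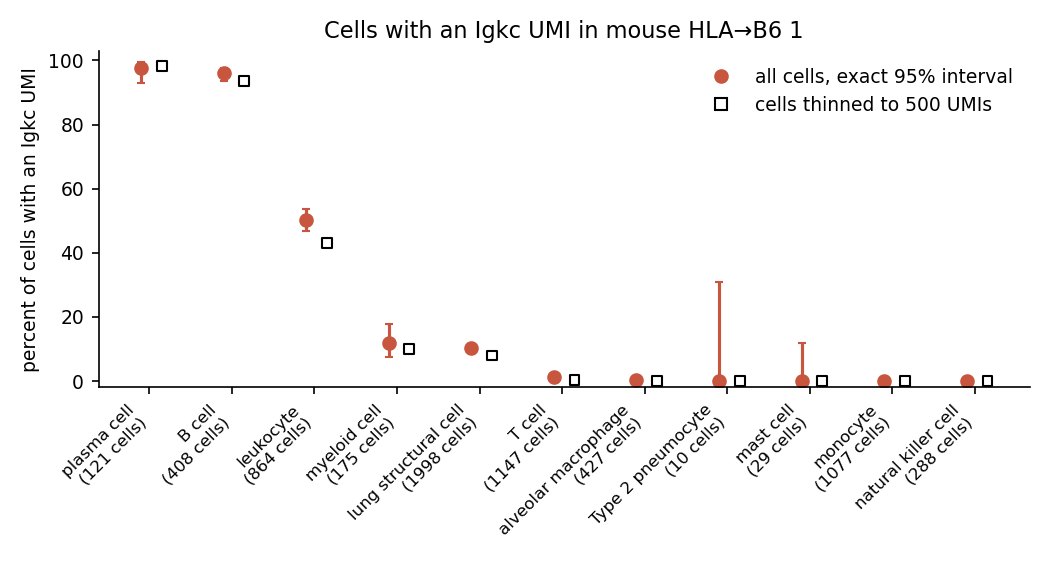
Percent of cells with an Igkc UMI (y axis) in each cell type of HLA→B6 mouse 1 (x axis, with the number of cells). Red points are all cells with exact 95% intervals, and open squares are cells thinned to 500 UMIs. Leukocytes lie at 50.1%, structural cells at 10.2% and T cells at 1.13%.

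Jchain gave another picture than Igkc in some types of this mouse. Its 1077 monocytes, with no Igkc UMI, had 48 Jchain UMIs in 9 cells, 39 of them in 1 cell, and its 427 alveolar macrophages had 1 Igkc and 34 Jchain UMIs. As a share of Jchain and Igkc UMIs together, Jchain was 8.29% in the PCs of the mouse (exact 95% interval 8.21% to 8.37%), 10.5% in leukocytes (9.35% to 11.8%), 14.7% in T cells (12.3% to 17.4%) and 15.6% in structural cells (13.4% to 17.9%). The lambda share of light chain UMIs was 4.01% in its PCs, 5.13% in leukocytes (4.27% to 6.11%), 7.12% in T cells, 11.6% in structural cells and 20.4% in B cells. These intervals take UMIs as independent draws and are too narrow where single cells hold many. In T cells 1 cell held 418 of the 665 Igkc UMIs and 1 cell 57 of the 115 Jchain UMIs. In leukocytes, T cells and structural cells alike the Jchain share lay above that of PCs and above the 1.34% of B cells. Their lambda shares lay between those of PCs and B cells, that of structural cells near the middle. Igkc, which is on the SoupX list, is in the denominator of both ratios, and the part of SoupX in them was not tested. The source of this message was not tested.

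The high means of the myeloid type came from single cells. In HLA→B6 mouse 1, 6 of 175 myeloid cells held 97.8% of the Igkc, with 1426 to 4889 Igkc UMIs among 11899 to 24269 UMIs each. All 6 had Mzb1 and none had Lyz2, a macrophage gene. In HLA→B6 mouse 2, 1 alveolar macrophage of 14726 UMIs had 1472 Igkc and no Mzb1 UMI. Without the cells that share a barcode, Igkc was 0 in the alveolar macrophages of HLA→B6 mouse 2 and B6→B6 mice 1 and 2 and in the myeloid cells of those B6→B6 mice. In HLA→B6 mouse 1 it was then 13545 CPM in place of 18861 in myeloid cells and 2305 in place of 3498 in leukocytes.

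Igkc of other cells was set against the amount of B line Igkc in the library. B cells and PCs gave 0.307%, 0.925%, 0.345%, 0.112% and 0.512% of all UMIs of the library as Igkc in the B6→B6 mice and 3.78%, 1.19% and 0.364% in the HLA→B6 mice. Across the 8 mice Pearson's r was 0.97 for T cells (exact permutation p = 0.0179, adjusted 0.0536 over 3 relations) and Spearman's rho 0.51 (p = 0.198). Without HLA→B6 mice 1 and 2, the farthest from the median, r was -0.42 (exact permutation p = 0.433), so that relation rests on these 2 mice. For NK cells r was 0.08 and rho 0.41 (exact permutation p = 0.875 and 0.500), with no value without those mice since all others were at 0. For structural cells r was 0.52 (exact permutation p = 0.192) and rho 0.93 (p = 0.00223, adjusted 0.00670), and without the same mice r was 0.58 (exact permutation p = 0.247) and rho 0.89 (p = 0.0333). Without HLA→B6 mouse 1 alone r was 0.84 (exact permutation p = 0.0115) and without mouse 2 alone 0.77 (p = 0.0296). The rank relation was lost without cells carrying a B cell marker UMI, with rho 0.48 (exact permutation p = 0.226) and r 0.61 (p = 0.1298), and without HLA→B6 mice 1 and 2 as well rho was -0.30 (p = 0.6) and r -0.22 (p = 0.533). A set of linked libraries has 4 mice, too few for a correlation within it.

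Genes with the most similar pattern were sought over 69 sums of a cell type and a mouse, among 7866 genes with at least 500 UMIs, as the Pearson correlation of log2(CPM + 1). Igkc was closest to Mzb1 (0.81), Iglc2 (0.77), Pou2af1 (0.77), Iglc1 (0.76) and Gm30211 (0.75). Pou2af1 encodes a B cell coactivator of antibody genes. The lambda sum was closest to Mzb1 (0.83), Ly6d (0.83), Pou2af1 (0.82), H2-Ob (0.80) and Ms4a1 (0.80), the gene of the B cell surface protein CD20. Jchain was closest to heavy chains of switched classes, Ighg3 (0.81), Ighg2c (0.80), Ighg1 (0.77), Ighg2b (0.72) and Igha (0.69). The sums of 1 mouse share a library and those of 1 type share a label, so these are descriptions without a test.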

How the data were processed

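Single-cell 3′ libraries (10x Genomics) of 8 grafts were used. The deposited values are UMI counts per gene and cell that the authors made with Cell Ranger on GRCm38 (mm10), with no normalization, next to their table of cell labels from Seurat clustering. Per their methods, barcodes and genes of low counts were dropped and SoupX was run. All 20778 cells and 17921 genes were kept and joined by cell name, and 0 value columns were left out. The members, gene lists and tests were chosen with earlier results of these data known.

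Counts were summed per mouse and type with at least 10 cells and given as CPM of all UMIs of the sum. Groups were compared with edgeR 4.0.16 in R 4.3.3 (TMM, filterByExpr with a minimum count of 10, quasi-likelihood F test, adjusted p under 0.05) over all genes passing the filter, and with DESeq2 1.42.0 as an alternative. The code was checked on simulated counts. Shares were compared by exact permutation over mice (Python 3.11.15, scipy 1.17.1). Thinned shares are expected values of random draws. A count of 0 was read as at most 3 counts. The named genes are the members, the genes of the fixed lists (1 of which is not reported here), the 5 most similar genes per member and the 3 Igkv genes with the most UMIs in PCs. Other genes named, Lyz2 among them, and the values without cells that share a barcode in PCs and in the correlations, the linked sets and the structural clusters left out were chosen after seeing the data. In the 4 sets of sums, same-numbered mice of the groups did not deviate together (correlations from -0.19 to 0.16), so the numbers were not taken as pairs.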

Additional observations from a re-analysis of the deposited data

Results flagged for a closer look

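In 12 groups of 5 B6→B6 mice, 2 held a mouse far from the other 4. For normal values chance flags about 1 group in 20, a rate that does not hold for counts near 0 such as these 2 groups. Jchain in B cells was at 20.5 CPM in B6→B6 mouse 1, from 2 UMIs in 58 B cells, where the others lay between 0 and 5.26 CPM. Igkc in T cells was at 16.3 CPM in B6→B6 mouse 4, from 33 UMIs in 5 of 1470 cells, where the others were at 0. A single mouse above 0 is always flagged by this rule.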

How the results depend on the processing

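Jchain was the 1 member called in B cells, 0 with DESeq2 and 0 to 1 with single mice left out. In 5 of the 8 fits with a mouse left out Jchain did not pass the filter, so it could not be called there. In T cells no member was called, but 1 (Igkc) without a filter on low counts or with the linked set as a covariate, and 0 to 1 with single mice left out. In NK cells it was 0, and 1 (Igkc) without a filter. In structural cells it was 1, but 2 (Jchain and Igkc) without cells carrying a B cell marker UMI or without structural clusters 6 and 10, and 0 to 1 with single mice left out. Over all genes, DESeq2 called 2 in place of 7 in B cells, 37 in place of 5 in T cells and 94 in place of 49 in structural cells. With the replicate number as a block the members called were 1 in B cells, 1 in T cells (Igkc, log2 fold change 9.86, adjusted p = 8.34e-05), 0 in NK cells and 1 in structural cells. The block moved the HLA→B6 difference in lambda, mixed, Iglc1 and Jchain percent to -2.0, -1.15, -3.08 and 1.62. The numbers are shared by name only. The Jchain difference was 0.978 percentage points in cluster 0 and 1.15 thinned to 500 UMIs (exact permutation p = 0.0357 in both). The difference in mixed cells was -0.21 with limits of 0.1 and 0.9 and between -3.88 and 3.43 with single mice left out, and that in the Iglc1 share between -1.90 and 1.71. With single mice left out, log2 fold changes in B cells ran from -0.00028 to 0.11 for Igkc, -0.23 to 0.019 for Iglc1 and -0.035 to 0.13 for Iglc2, and from -2.18 to 1.53 for Iglc2 in structural cells. Pearson's r of T cells was 0.94 without cells carrying a B cell marker UMI (exact permutation p = 0.0881), -0.42 without the 2 farthest mice and 0.60 to 0.99 with single mice left out, and that of structural cells 0.47 to 0.84. The causes were not tested. Only 2 mice, both HLA→B6, had 10 or more PCs, and the median of 1597.5 UMIs per B cell leaves rare transcripts such as Iglv1 and Jchain unseen in most cells.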
